A study of Homo sapiens with 3 samples.

Results

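The 10 genes described here are the inhibitor of DNA binding genes ID1, ID2, ID3 and ID4 and the SMAD genes SMAD1, SMAD2, SMAD3, SMAD4, SMAD6 and SMAD7. They were found by matching the transcript accessions of the array to RefSeq genes, which gave 11 probes for the 10 members among 34041 probes and 19699 named genes in all. ID2 had 2 probes and each other member had 1. The samples were cells of PANC-1, a line grown from a human pancreatic carcinoma, as untreated controls, after 24 h with 20 µM cantharidin, or after 24 h with 20 µM okadaic acid. The agents are inhibitors of PP2A, a major serine and threonine phosphatase of the cell. Total RNA of each group was hybridised to 1 Agilent 1-colour array. Without replicates, the values below are compared by size, and no test between the groups could be made.

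SMAD proteins carry signals of the transforming growth factor-β (TGF-β) family from the cell surface to the nucleus. Receptors phosphorylate SMAD2 and SMAD3 after TGF-β or activin, and SMAD1 after bone morphogenetic proteins (BMPs). These proteins then bind SMAD4 and act on target genes, and phosphatases can remove the phosphate again. SMAD6 and SMAD7 are inhibitory members whose genes are themselves induced by the pathway. The ID genes are well-known targets of BMP signalling. ID proteins have a helix-loop-helix domain but no DNA-binding region, and they hold basic helix-loop-helix (bHLH) factors away from DNA. In the pancreas the pathway is best known because SMAD4 is frequently lost in ductal carcinoma.

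The floor of detection is the dimmest signal that the scanner software still called well above background. It was 35.0 intensity units for control cells, 21.9 for cantharidin and 58.0 for okadaic acid. No transcript spot was saturated. Before differences were taken, the 75th percentile of its array was subtracted from every log2 signal. The keratins KRT8, KRT18 and KRT19 and the epithelial marker EPCAM were well above background on all 3 arrays, while the fibroblast gene COL1A2 and the endothelial gene PECAM1 were so on none. The epithelial cadherin gene CDH1 was well above background on 1 array, that of control cells. The PTPRC probe, for a blood cell marker, gave 372 intensity units in control cells, 263 under cantharidin and 405 under okadaic acid, all well above background. This signal goes against the label. Whether the probe is specific could not be checked, and its part in the results was not tested.

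Among the ID genes, 3 members had strong signals and each followed its own course. ID1 was lower under both agents, ID2 was higher under both, and ID3 was lower under cantharidin but higher under okadaic acid. ID4 was at the limit of detection. Because ID1, ID2 and ID3 are textbook SMAD targets that differed in direction here, the 250 bases before their transcript starts are shown, 5′ to 3′, from RefSeq on GRCh38.p14. The letters CAGAC, or GTCTG on the other strand, are in capitals. They are a form of the site that SMAD proteins recognise and are called the core here.
ID1 (chr20:31605039-31605288, plus strand): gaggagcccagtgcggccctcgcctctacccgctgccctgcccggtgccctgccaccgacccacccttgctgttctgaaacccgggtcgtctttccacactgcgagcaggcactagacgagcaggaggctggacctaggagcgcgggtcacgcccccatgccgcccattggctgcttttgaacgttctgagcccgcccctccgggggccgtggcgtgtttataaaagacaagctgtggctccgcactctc
ID2 (chr2:8681806-8682055, plus strand): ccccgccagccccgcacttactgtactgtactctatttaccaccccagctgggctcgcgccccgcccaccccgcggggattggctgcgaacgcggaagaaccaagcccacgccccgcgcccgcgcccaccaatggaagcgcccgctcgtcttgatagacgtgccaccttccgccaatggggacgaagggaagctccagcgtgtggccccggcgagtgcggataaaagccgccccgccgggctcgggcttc
ID3 (chr1:23559502-23559751, minus strand): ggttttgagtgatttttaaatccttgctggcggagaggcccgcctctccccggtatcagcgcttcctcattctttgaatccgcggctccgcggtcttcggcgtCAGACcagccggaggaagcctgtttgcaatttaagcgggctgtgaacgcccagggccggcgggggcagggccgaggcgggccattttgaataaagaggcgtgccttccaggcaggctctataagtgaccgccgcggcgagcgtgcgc
The core was found 1 time in the ID3 window, from 147 to 143 bases before the start, and was not in the ID1 or ID2 window. Of all 35116 such windows, 38% held it. The shorter letters GTCT or AGAC were not counted, and both the ID1 and the ID2 window hold them. The 6-letter motif GGCGCC, linked to BMP-responsive promoters and the same on both strands, was in none of these 3 windows and in 16.4% of all windows. An E-box, CANNTG on either strand and the kind of site that bHLH factors bind, was found 1 time for ID2 and not for ID1 or ID3, against 61.8% of all windows. Matches to any 2 of these motifs can share at most 1 letter. Sites farther from the start were not searched for, so a motif missing here may lie outside the window. These matches describe the letters and say nothing about binding.

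ID1 was highest in control cells. Its signal was 64250 ± 6425 intensity units in control cells, 7831 ± 783 under cantharidin and 27256 ± 2726 under okadaic acid, where ± is the error that the scanner software gave for the spot. After scaling, cantharidin cells were 7.45-fold lower and okadaic acid cells 2.81-fold lower. These folds correspond to log2 differences of -2.90 and -1.49. The spread of such a difference was taken from probes of like brightness that had 10 spots on each array. It was 0.09 and 0.08 on the log2 scale for ID1. On the control array only 6 such probes were as bright as ID1, so this spread rests on few probes. Both differences were larger than this spread, which covers spot noise only and no variation between cultures. On the scale of all genes, ID1 ranked 562 from the lowest of 16644 genes under cantharidin and 1853 from the lowest of 16166 under okadaic acid.

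ID2 went the other way on both of its probes. The brighter probe gave 611 ± 61.6 in control cells, 3303 ± 330 under cantharidin and 38888.5 ± 3889 under okadaic acid. Its second probe gave 585 ± 58.9, 2868 ± 287 and 33846 ± 3385. The 2 probes therefore showed the same order of the arrays. The scaled differences were 5.95-fold and 5.40-fold higher under cantharidin. Under okadaic acid they were 53.3-fold and 48.5-fold higher, or 5.74 and 5.60 on the log2 scale. This placed ID2 at rank 31 from the highest of 16166 genes under okadaic acid, and at rank 861 of 16644 under cantharidin. The probes differed from each other by 0.14 in both log2 differences from control. Among 2814 genes with several probes well above background on all arrays, the median distance between the highest and lowest probe was 0.59 for cantharidin and 0.62 for okadaic acid. The 90th percentile of this distance was 2.21 and 1.94. Probes past 1.5-fold in opposite directions were found for 6.40% and 4.73% of these genes. For the 9 members with 1 probe such a disagreement could not be seen.

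ID3 separated the agents. Its signal was 8050 ± 805 in control cells, 3130 ± 313 under cantharidin and 18339 ± 1834 under okadaic acid. The gene was 2.34-fold below control with cantharidin and 1.91-fold above it with okadaic acid, and the log2 differences of -1.22 and 0.93 were both larger than the spot spread of 0.09 and 0.07. Okadaic acid cells therefore had the highest ID3 signal and cantharidin cells the lowest. ID4 had signals of 37.2 ± 8.58, 36.4 ± 6.82 and 41.9 ± 13.4. It was well above background under cantharidin only, at 1.66 times the lowest such signal of that array. Its difference of 0.11 from control was within the spot spread of 0.40, and no fold is given for okadaic acid because neither that signal nor the control signal was well above background. ID4 was thus near or below the floor on every array, and a change in it was not detectable.

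**Figure D1:**
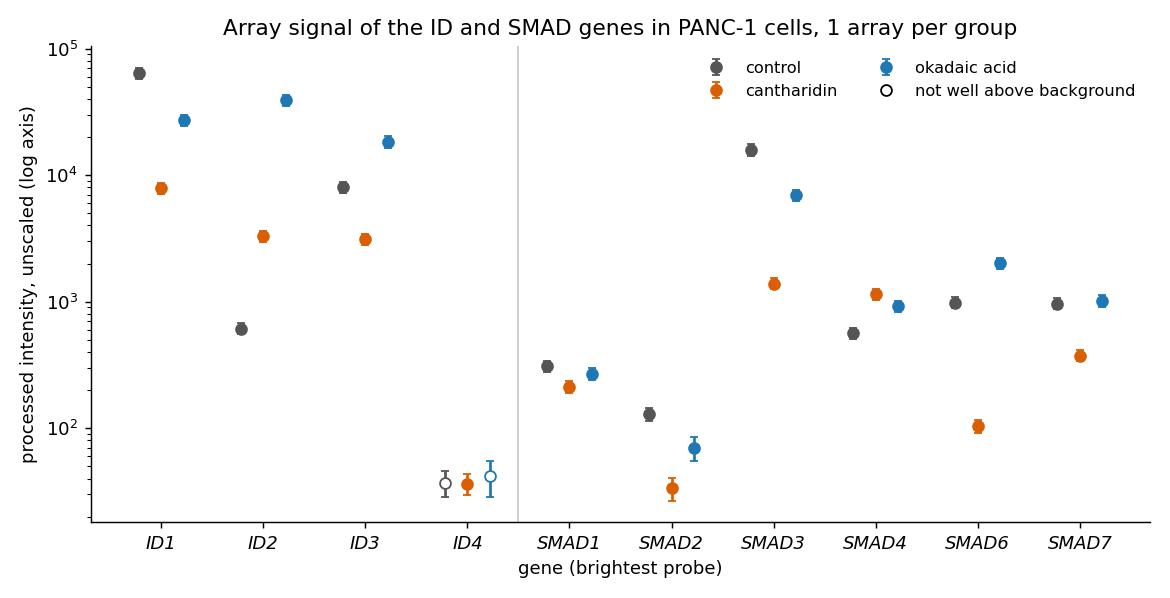
Processed intensity of each member (log axis) on the control, cantharidin and okadaic acid array, before scaling. Points are the brightest probe of each gene, bars are the error given by the scanner software, and open circles were not well above background. ID2 runs from 611 in control cells to 38888.5 under okadaic acid, whereas ID1 is highest in control cells at 64250. Levels of different genes come from different probes and cannot be set against each other.

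The receptor-regulated SMAD genes were lower or close to control. SMAD3, which carries the TGF-β and activin signal, was much lower under cantharidin and lower under okadaic acid. SMAD2, its close relative, had the same direction, with treated signals near the floor of their arrays. SMAD1, which carries the BMP signal, was less than 1.5-fold below control. SMAD4, the shared partner of all of these, was the exception, with a higher signal in both treated arrays.

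SMAD3 was measured by 1 probe with 10 spots, of which 9 were used on each array. The control spots lay between 15253 and 16583 with a median of 15844. The cantharidin spots lay between 1318 and 1472 with a median of 1382, and the okadaic acid spots between 6638 and 7400 with a median of 6962. No spot of one array overlapped the range of another. Spots are technical repeats on 1 array and not replicates of a treatment. The means after scaling were 4.34 ± 0.04 (SD, n = 9 spots) in control cells, 0.96 ± 0.05 under cantharidin and 2.90 ± 0.06 under okadaic acid on the log2 scale. This put SMAD3 10.4-fold below control with cantharidin and 2.71-fold below it with okadaic acid. It ranked 324 from the lowest of 16644 genes in the first comparison and 1957 of 16166 in the second.

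SMAD4 also had 10 spots, all of which were used. Its control spots lay between 527 and 593 with a median of 564, its cantharidin spots between 1081 and 1197 with a median of 1142, and its okadaic acid spots between 875 and 974 with a median of 915. The scaled means were -0.47 ± 0.05 (SD, n = 10 spots) in control cells, 0.68 ± 0.05 under cantharidin and -0.03 ± 0.06 under okadaic acid. The order of the arrays was thus cantharidin, okadaic acid, control, with no overlap of spots. The difference was 2.23-fold higher under cantharidin. Under okadaic acid it was 1.36-fold higher, larger than the spot spread but below the 1.5-fold used as the threshold here and in the study, which it passed only without scaling, at 0.70 on the log2 scale. The control signal of SMAD4 was 16.1 times the floor of its array.

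**Figure D2:**
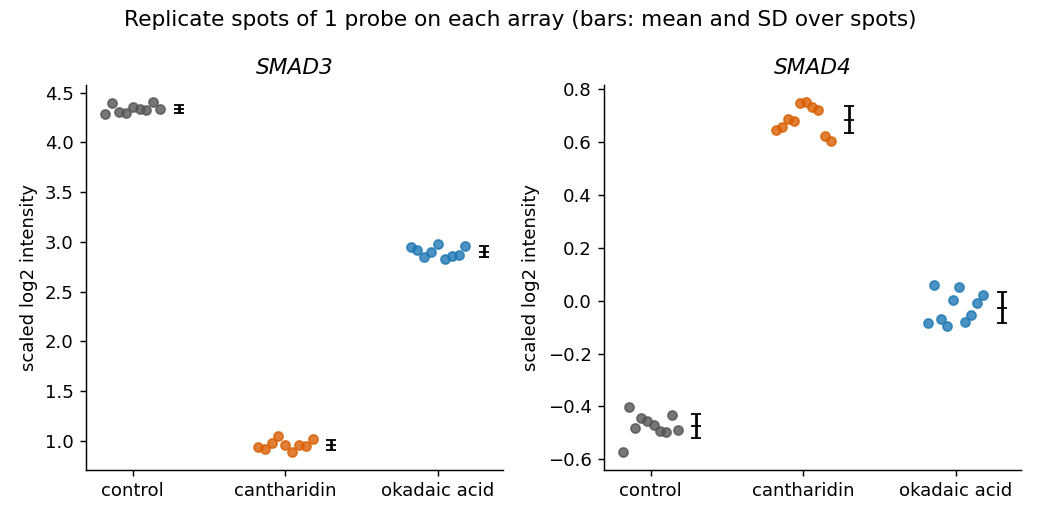
Scaled log2 intensity of every spot used for SMAD3 (9 per array) and SMAD4 (10 per array), with the mean and SD over spots as black bars. The SMAD3 spots are highest in control cells at 4.34 and lowest under cantharidin at 0.96, and the SMAD4 spots are lowest in control cells at -0.47 and highest under cantharidin at 0.68.

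SMAD2 gave 129 ± 14.9 intensity units in control cells, 33.5 ± 6.76 under cantharidin and 69.9 ± 14.6 under okadaic acid. The treated signals were 1.53 and 1.20 times the floor of their arrays. SMAD2 was 3.49-fold below control with cantharidin and 2.20-fold below it with okadaic acid, with log2 differences of -1.80 and -1.14 against spot spreads of 0.32 and 0.25. The normexp background correction moved these to -0.80 and -0.66, so the size of the SMAD2 difference depended on the background. SMAD1 gave 309 ± 31.9, 213 ± 22.1 and 270 ± 30.0, and stood 1.32-fold and 1.37-fold below control, although in the deposited normalized table the okadaic acid difference was -0.63 on the log2 scale and past 1.5-fold. The remaining receptor-regulated genes of the family, which are no members, were also close to control. SMAD5 stood 1.27-fold and 1.12-fold above control. SMAD9 stood 1.22-fold and 1.29-fold below control on its brighter probe but 1.32-fold and 1.22-fold above it on the other, so its probes disagree in direction.

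The inhibitory SMAD genes were lower under cantharidin and close to or above control under okadaic acid. SMAD6, which mainly restrains BMP signals, and SMAD7, which restrains TGF-β and BMP signals, are the feedback genes of the pathway, so the 250 bases before their starts are shown in the same way. For SMAD7, which has 3 starts in the table, the most upstream was taken. Capitals mark the SMAD core in SMAD7 and, in SMAD6, the palindrome GTCTAGAC, which joins GTCT to its reverse complement and cannot contain the core.
SMAD6 (chr15:66701986-66702235, plus strand): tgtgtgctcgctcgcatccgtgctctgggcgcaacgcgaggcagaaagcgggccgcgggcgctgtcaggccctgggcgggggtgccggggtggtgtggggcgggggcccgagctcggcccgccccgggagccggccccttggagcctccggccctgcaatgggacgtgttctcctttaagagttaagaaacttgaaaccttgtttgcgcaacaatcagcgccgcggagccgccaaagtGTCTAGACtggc
SMAD7 (chr18:48950966-48951215, minus strand): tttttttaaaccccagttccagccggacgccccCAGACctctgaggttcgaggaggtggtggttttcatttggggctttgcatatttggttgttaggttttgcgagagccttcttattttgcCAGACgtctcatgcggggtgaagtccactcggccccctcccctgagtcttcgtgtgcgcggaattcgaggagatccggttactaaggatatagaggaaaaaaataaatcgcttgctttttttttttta
The SMAD7 window held the core 2 times, from 217 and from 128 bases before the start. The palindrome lay 12 to 5 bases before the SMAD6 start. It was searched for after the sequences had been seen, was in none of the windows taken for the other members, and was in 64 of all 35116 windows (0.182%). The windows of the other SMAD7 starts were not examined singly, so its absence from SMAD7 is not shown. SMAD6 held neither the 5-letter core nor GGCGCC. Of the other SMAD members, SMAD3 held GGCGCC 2 times, SMAD2 and SMAD4 held it 1 time each, and SMAD1 held neither motif. SMAD1 and SMAD3 have 5 starts each and SMAD2 has 2, and here too the most upstream was taken. These matches describe that window only.

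SMAD6 was far apart between the agents. Its signal was 981 ± 98.4 in control cells, 103 ± 11.8 under cantharidin and 2008 ± 201 under okadaic acid. This was 8.64-fold below control with cantharidin and 1.71-fold above it with okadaic acid, with log2 differences of -3.11 and 0.78 against spot spreads of 0.14 and 0.08. SMAD7 gave 963 ± 96.6, 375 ± 37.8 and 1017 ± 102. It was 2.33-fold lower under cantharidin. Under okadaic acid it was 1.13-fold lower after scaling, a log2 difference of -0.18 that turned to 0.08 without scaling. SMAD7 in control and okadaic acid cells is therefore given without an order.

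**Figure D3:**
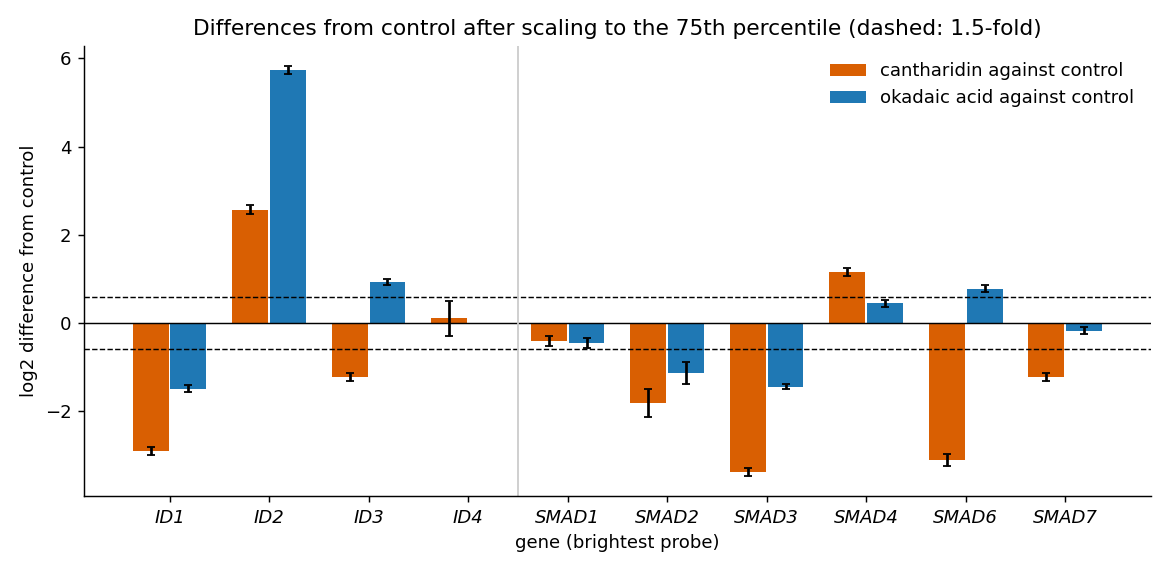
Log2 difference from control of each member under cantharidin and okadaic acid after scaling. Bars are the brightest probe, error bars are the spread from replicate spots of probes of like brightness, and dashed lines mark 1.5-fold. ID2 is the largest bar at 5.74 under okadaic acid, SMAD3 is the lowest at -3.38 under cantharidin, and ID3 and SMAD6 point in opposite directions under the agents. ID4 under okadaic acid is not drawn because neither signal was well above background.

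Counted together, 2 of the 10 members were at least 1.5-fold higher under cantharidin (ID2 and SMAD4), while 27.5% of all 16644 genes compared were. At least 1.5-fold lower were 6 members (ID1, ID3, SMAD2, SMAD3, SMAD6 and SMAD7), while 34.1% of all genes were. The median log2 difference was -1.22 over the members and -0.16 over all genes. Under okadaic acid 9 members could be compared. Of these, 3 were higher (ID2, ID3 and SMAD6), against 28.1% of all 16166 genes, and 3 were lower (ID1, SMAD2 and SMAD3), against 28.8%, which is near the background. The medians were -0.18 and 0.01. The comparisons share the control array, so their calls are not independent of each other.

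Okadaic acid was also set directly against cantharidin, at the dose and time that the labels give for both. Of the 10 members, 7 were at least 1.5-fold higher under okadaic acid, against 29.5% of 16200 genes, and 1 was lower, against 22.3%. The median was 1.23 over the members and 0.13 over all genes. SMAD6 was 14.8-fold higher, at rank 58 from the highest of all genes. ID2 was 8.96-fold higher on its brighter probe and 8.98-fold on the other. ID3 was 4.46-fold, SMAD3 3.83-fold, ID1 2.65-fold, SMAD7 2.07-fold and SMAD2 1.59-fold higher. SMAD4 was 1.64-fold lower under okadaic acid, but without scaling this difference was -0.32 on the log2 scale and below the threshold. The SMAD2 call was lost in 4 of 9 alternatives other than the 2-fold threshold. SMAD1 differed by 1.03-fold. No fold is given for ID4, which was not well above background under okadaic acid.

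ID3 and SMAD6 were the members past 1.5-fold in opposite directions from control. At a 2-fold threshold neither was called under okadaic acid with the main processing, so the pattern there rests on the 1.5-fold threshold. Over all genes this pattern, lower under cantharidin and higher under okadaic acid, was found for 353 of 16049 (2.2%), and the reverse for 228 (1.42%).

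**Figure D4:**
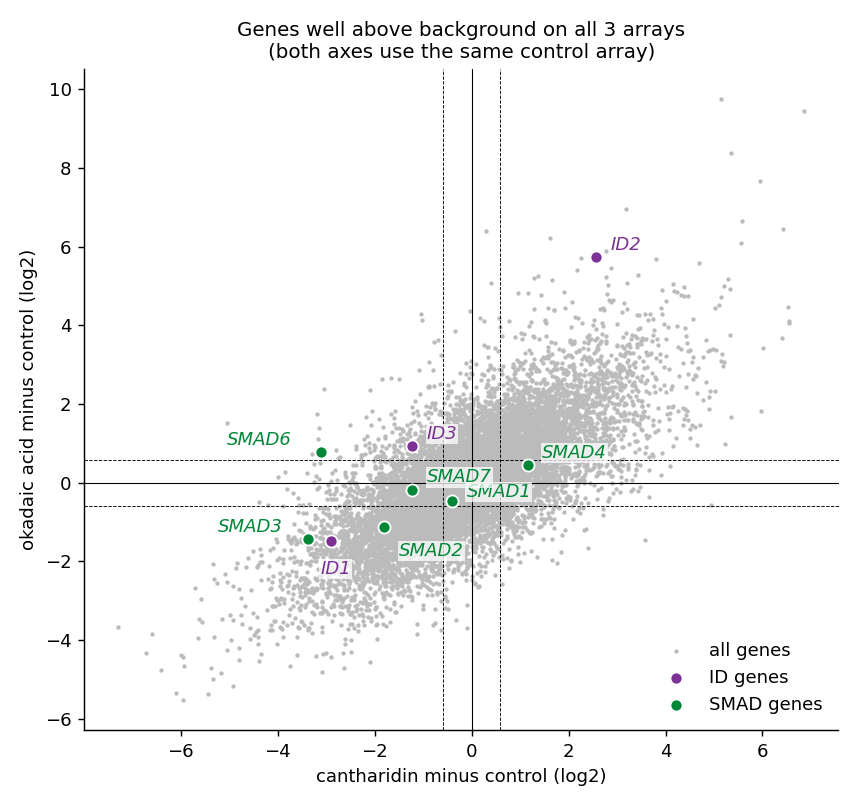
Log2 difference from control under cantharidin (horizontal) and okadaic acid (vertical) for genes well above background on all 3 arrays, with ID members in purple and SMAD members in green. Dashed lines mark 1.5-fold. ID2 lies at 2.57 and 5.74, SMAD3 at -3.38 and -1.44, and SMAD6 and ID3 sit in the upper left at -3.11 and 0.78 and at -1.22 and 0.93. Both axes use the same control array, so the slope of the cloud is no result.

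To place the members beside other genes, the genes nearest to ID1 and SMAD7 in both differences from control were listed among 14221 genes well above background on all 3 arrays. For ID1 these were LRIG3, MCM3 and SLC44A1, at distances of 0.08 each on the log2 scale. MCM3, a subunit of the helicase that opens DNA for replication, was at -2.82 under cantharidin and -1.49 under okadaic acid. For SMAD7 they were NUP155, FAM118B and MRPL22, at distances of 0.01 to 0.02. NUP155, a nuclear pore protein, was at -1.23 and -0.18. Closeness over 2 differences is a description of these arrays only.

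Upstream of the SMAD proteins are ligands and receptors. Of 14 receptor genes, 11 could be compared under cantharidin, with 4 higher (36.4%, against 27.5% of all genes) and 5 lower (45.5%, against 34.1%) and a median of 0.46 against -0.16 over all genes. Under okadaic acid 3 of 10 were higher, near the 28.1% of all genes, and 5 lower (50%, against 28.8%), with a median of -0.38. With dim signals set to the floor of their array, the cantharidin count of higher genes was 3, the okadaic acid count of lower genes was 3, and the okadaic acid median was 0.02. AMHR2, the receptor of anti-Müllerian hormone, was the farthest from control in both, with signals of 70.5 in control cells, 2571 under cantharidin and 1139.7 under okadaic acid. BMPR1A, a BMP receptor, was 5.10-fold and 1.71-fold lower. ACVR1, also a type I receptor that serves BMPs, was 3.35-fold higher under cantharidin and 1.23-fold above control under okadaic acid. ENG, a co-receptor, was 2.76-fold and 2.24-fold lower. ACVR2B, an activin receptor, was 1.38-fold above control under cantharidin and 2.40-fold higher with okadaic acid.

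Of 22 ligand genes, 17 could be compared with each agent. Under cantharidin 4 were higher (23.5%, against 27.5% of all genes) and 6 lower (35.3%, against 34.1%), both near the background, with a median of -0.36. Under okadaic acid 6 were higher (35.3%, against 28.1%) and 3 lower (17.6%, against 28.8%), with a median of 0.29. BMP8B was higher by 3.09 and 3.46 on the log2 scale. AMH was 11.1-fold higher under cantharidin and 1.37-fold above control under okadaic acid. INHBB, an activin subunit gene, was 3.68-fold and 2.07-fold lower. BMP5 was 2.11-fold lower with cantharidin but 2.87-fold higher with okadaic acid. INHBA, another activin subunit gene, differed by 1.02-fold under cantharidin and was 2.95-fold higher with okadaic acid.

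Of 13 extracellular and membrane antagonists compared under cantharidin, 1 was higher (7.69%, against 27.5% of all genes) and 6 were lower (46.2%, against 34.1%), with a median of -0.21. Under okadaic acid 2 of 12 were higher (16.7%, against 28.1%) and 4 lower (33.3%, near the 28.8% of all genes), with a median of 0.03, and 3 were lower with dim signals at the floor. The higher gene in both was BAMBI, a decoy receptor that blocks the pathway, with signals of 83.8 in control cells, 977 under cantharidin and 1945 under okadaic acid. FSTL1 was 5.90-fold and 6.57-fold lower. NOG, which encodes the BMP antagonist noggin, was 5.05-fold and 2.29-fold lower. TWSG1, a BMP-binding protein, was 4.21-fold and 2.77-fold lower.

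Inside the cell, ubiquitin ligases and cofactors act on SMAD proteins. Under cantharidin 10 of 18 of their genes were higher (55.6%, against 27.5% of all genes) and 4 lower (22.2%, against 34.1%), with a median of 0.83. Under okadaic acid 7 of 17 were higher (41.2%, against 28.1%) and 2 lower (11.8%, against 28.8%), with a median of 0.36. EP300, an acetyltransferase that SMAD proteins recruit, was 6.42-fold and 5.74-fold higher, and its relative CREBBP was 5.26-fold higher under cantharidin and 1.47-fold above control under okadaic acid. USP15, a deubiquitinase of the pathway, was 5.84-fold and 6.54-fold higher. SKIL, a co-repressor that is also a TGF-β target, was 4.33-fold and 3.73-fold higher.

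Target genes were mixed. Of the TGF-β and SMAD3 targets, 2 of 13 were higher (15.4%, against 27.5% of all genes) and 7 lower (53.8%, against 34.1%) under cantharidin, with a median of -0.74. Under okadaic acid 3 of 13 were higher (23.1%, against 28.1%) and 6 lower (46.2%, against 28.8%), with a median of -0.55. With dim signals at the floor, 5 were lower and the median was -0.23. SKIL, named above as a TGF-β target, was counted with the cofactors and not in this list. TGFBI, a matrix protein named for its induction by TGF-β, was 6.96-fold and 4.73-fold lower. PMEPA1, a feedback inhibitor, was 1.93-fold and 2.50-fold lower. SNAI1, a repressor of epithelial genes, was 2.15-fold and 5.49-fold higher. BHLHE40 differed by 1.01-fold under cantharidin and was 3.84-fold higher with okadaic acid. Of the BMP and SMAD1 targets beside the ID genes, 4 of 11 were higher (36.4%, against 27.5%) and 3 lower (27.3%, against 34.1%) under cantharidin, with a median of 0.32. Under okadaic acid 4 of 10 were higher (40%, against 28.1%) and 3 lower (30%, near the 28.8% of all genes), with a median of 0.04, and 2 were lower with dim signals at the floor. The homeobox genes MSX1 and DLX2 were 7.59-fold and 10.1-fold higher under cantharidin, and 25.1-fold and 8.07-fold higher with okadaic acid. Their relative MSX2 was 1.96-fold and 1.75-fold lower. GATA2 differed by 1.25-fold under cantharidin and was 5.74-fold higher with okadaic acid.

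Last, bHLH genes and other factors linked to ID proteins were examined. Of the bHLH genes, 2 of 13 were higher (15.4%, against 27.5% of all genes) and 5 lower (38.5%, near the 34.1% of all genes) under cantharidin, with a median of -0.42. Under okadaic acid 4 of 13 were higher (30.8%, near the 28.1% of all genes) and 1 lower (7.69%, against 28.8%), with a median of 0.33. TCF12, an E protein and direct partner of the ID proteins, was 1.56-fold and 1.79-fold lower. ASCL2 was 4.28-fold and 1.87-fold higher. TAL1 differed by 1.34-fold under cantharidin and was 4.93-fold higher with okadaic acid. Under cantharidin HEY1 was 1.89-fold and TWIST1 1.75-fold lower, while under okadaic acid they stood 1.21-fold below and 1.26-fold above control. Of 8 ETS and PAX factors linked to ID proteins, 1 was higher (12.5%, against 27.5% of all genes) and 2 lower (25%, against 34.1%) under cantharidin, with a median of -0.36. Under okadaic acid none was higher, against 28.1%, and 4 were lower (50%, against 28.8%), with a median of -0.62. PAX2 was 7.09-fold and 3.65-fold lower, whereas PAX8 was 2.68-fold higher under cantharidin and 1.38-fold above control under okadaic acid. ELK3 was 1.67-fold and 1.60-fold lower. ETS1 and ELK1 were within 1.5-fold under cantharidin and 1.89-fold and 1.71-fold lower under okadaic acid. With 1 array a group these counts carry no test.

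**Figure D5:**
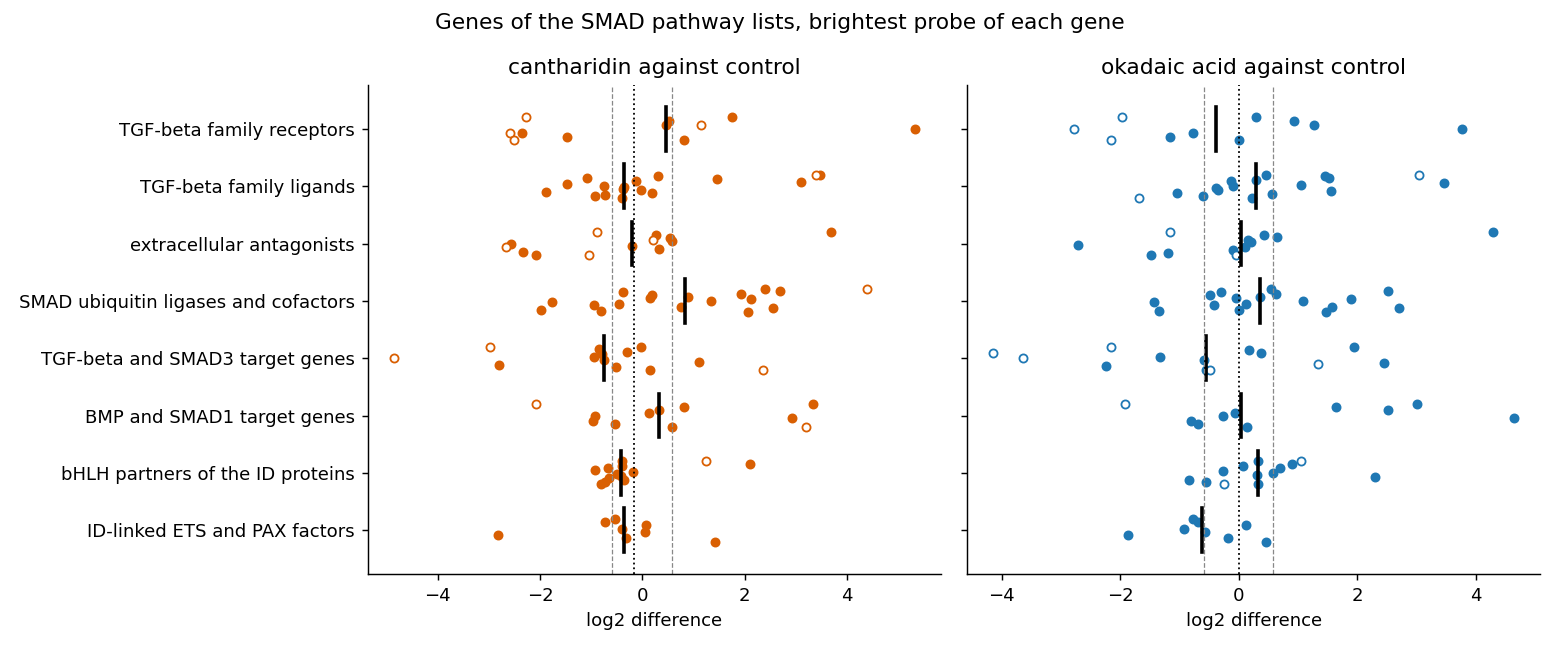
Log2 differences from control of the genes of each pathway list under cantharidin (left) and okadaic acid (right). Each point is a gene (filled when well above background on both arrays, open on 1 only), black bars are list medians, dotted lines the median of all genes and dashed lines 1.5-fold. The ubiquitin ligase and cofactor genes have the highest list median under cantharidin, at 0.83, and the TGF-β and SMAD3 targets the lowest, at -0.74.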

How the data were processed

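Gene expression of PANC-1 cells was measured on 3 Agilent 1-colour arrays, 1 per group as the titles name them. The authors deposited spot intensity values from Feature Extraction (version 11.0.1.1), which per the file headers were background-subtracted and detrended within each array, and flags (other columns). The deposited table of normalized log2 values, for which the method is not given in the sources used here, served as an alternative. All arrays came from 1 scan, and array position went with the group.

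Spots with outlier flags were left out and log2 intensity was averaged per probe, giving 34041 probes, and the 75th percentile of each array (784, 713 and 936 intensity units) was subtracted. Accessions were matched without version to RefSeq genes of GRCh38.p14, which named 25705 probes, while the array annotation used hg19. Coordinates are therefore given for the promoter windows only, and not for genes or probes. Where a gene had several probes, the one brightest on average was used. A gene was compared when 1 or both arrays measured it well above background, and called at 1.5-fold. The number of arrays limits the precision. Spot noise was the median SD of the 999 probes with 10 spots that lay within 0.5 log2 units in brightness. Promoter windows are RefSeq sequence of GRCh38.p14 and were not measured here.

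Members, lists and alternatives were chosen with earlier results of these data known. Genes named from the lists were, per agent, at most 3 with the largest difference among those well above background on both arrays. ID1 and SMAD7 were set beside the 3 genes nearest by Euclidean distance. No probe matched NBL1 or TWIST2, which were not used here. Counting was tested on simulated data with large changes planted in few probes. That setting cannot show how the scaling behaves when as many genes differ as here. The software was R 4.3.3, limma 3.58.1, Python 3.11.15, numpy 2.4.6, pandas 2.3.3 and matplotlib 3.10.9. The alternatives were normexp with an offset of 50, 4 other scalings, 2 other filters, the deposited table, a 2-fold threshold and the median over probes.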

Additional observations from a re-analysis of the deposited data

Results flagged for a closer look

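ID3 and SMAD6 passed 1.5-fold from control in opposite directions under the agents, lower under cantharidin and higher under okadaic acid. The log2 difference between okadaic acid and cantharidin was 2.16 for ID3 and 3.89 for SMAD6. Their okadaic acid differences from control, 0.93 and 0.78, did not reach 2-fold with the main processing, so at that threshold the opposite calls were lost. Without scaling they were 1.19 and 1.03, past 2-fold. ID3 alone was also past it, at 1.01, with normexp and with a 75th percentile over probes well above background on all arrays. With 1 array per agent this difference was not tested. Both genes have a single spot on each array. In the alternatives the difference lay between 2.01 and 2.55 for ID3 and between 3.05 and 4.28 for SMAD6.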

How the results depend on the processing

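The 10 alternatives left the cantharidin counts at 2 members higher and 6 lower. Under okadaic acid the count of higher members was 1 at a 2-fold threshold, where ID3 and SMAD6 lost their calls, and 4 without scaling. The count lower than under cantharidin was 0 without scaling and 0 at a 2-fold threshold, because SMAD4 then missed it. No member past 1.5-fold changed its direction in any alternative. Of 259 values of single members under alternatives, 191 moved by no more than the spot spread or not at all, and 68 by more. The 191 include values that could not move. The 2 other filters do not alter the difference of a member, and the median over probes alters ID2 only. The share is therefore no measure of robustness. At 1.5-fold, the calls against control that changed were those of SMAD1 under okadaic acid in the deposited table, at -0.63, and of SMAD4 without scaling, at 0.70. The median of all genes lay between -0.30 and -0.09 under cantharidin and between -0.11 and 0.26 under okadaic acid, so differences of this size have to be read against it. SMAD6 under cantharidin ranged from -3.43 to -2.29 and SMAD2 from -2.02 to -0.80. ID4 and SMAD2 are limited by their signal over background. No paired analysis was possible because each group has 1 array, and for the same reason no array could be left out.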
